A study of Mus musculus with 6 samples.

Results

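Core NF-kB genes were followed in mouse blood progenitors with and without latexin, as a list of 10 genes. They encode the NF-kB transcription factor subunits (Nfkb1, Nfkb2, Rel, Rela and Relb) and proteins that hold the subunits in check or feed back on them (Nfkbia, Nfkbie, Nfkbiz, Tnfaip3 and Bcl3). Their features were found by gene symbol in the platform's probe-to-gene table, and the list was drawn up with earlier results of these data known. Of the 10, 9 have exactly 1 feature each among the 23410 features with a gene symbol (19938 genes when a gene is counted once), and Nfkb1 was not analysed here because the table used pairs no feature with it.

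The levels come from 6 whole-transcript arrays of mouse multipotent progenitors (MPP), 3 labelled Lxn-/- and 3 labelled WT. Lxn-/- mice lack exons 2 to 4 of latexin and the latexin protein, which inhibits carboxypeptidases, and WT mice have an intact latexin gene. All mice are described as female C57BL/6 animals of 8 to 12 weeks, and the marrow cells were gated as lineage-negative, Sca1+, c-Kit+, CD34+ and positive for the receptor written Flt2. The series text elsewhere calls the cells long-term stem cells, and the sample labels and gate are followed here. Each array is 1 pool of about 100000 cells from 10 to 20 mice, so replicates are pools and the p-values measure the spread between pools. The question is whether genes of this pathway differ in progenitors without latexin. All values are log2 expression levels, differences are Lxn-/- minus WT on the log2 scale, and the number of arrays limits the precision of every value.

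NF-kB dimers sit in the cytoplasm, bound to inhibitor proteins of the IkB family, until a signal from a cytokine or microbial receptor activates the IKK kinase complex and the inhibitor is degraded. The freed dimers enter the nucleus and switch on genes of inflammation and survival, among them the genes of their own inhibitors, which is how the pathway limits itself. In blood stem and progenitor cells the pathway is known for its part in survival, in inflammatory signalling and in the balance of lineages.

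Some arrays did not match their labels, and this bears on every value that follows. Xist, the X-inactivation RNA, read 6.86, 13.17 and 5.85 in Lxn-/- arrays 1, 2 and 3, against 13.20, 13.13 and 13.23 in WT arrays 1, 2 and 3. The Y-linked gene Eif2s3y read 8.57, 3.83 and 9.36 in the Lxn-/- arrays, against 3.88, 3.97 and 3.68 in the WT arrays, although the labels call all mice female. Lxn itself read 8.03, 8.53 and 8.61 in the Lxn-/- arrays, against 8.56, 8.70 and 8.58 in the WT arrays, and since the sources used here do not say which exons its feature covers, it does not check the genotype. Of the gate markers, Kit, Flt3 and Cd34 had a feature, with a log2 level of at least 11.48 in every array, Kit being lowest in Lxn-/- array 1, and Ly6a was not analysed here. Each member is therefore given with all arrays, without Lxn-/- array 2 (the Lxn-/- array with no Y-linked signal), and for Lxn-/- array 2 alone.

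Because several of these genes are known NF-kB targets themselves, their promoter letters are shown before the levels. Promoter windows from RefSeq (GRCm38.p6), which run from 250 bases before to 50 bases after a gene start, were at hand for 7 of the 10 genes. The window of Nfkbia, which encodes the inhibitor IkB-alpha, lies on the minus strand at chr12:55492598-55492897, with the kappaB match in capitals 29 bases before the start:

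Nfkbia promoter window: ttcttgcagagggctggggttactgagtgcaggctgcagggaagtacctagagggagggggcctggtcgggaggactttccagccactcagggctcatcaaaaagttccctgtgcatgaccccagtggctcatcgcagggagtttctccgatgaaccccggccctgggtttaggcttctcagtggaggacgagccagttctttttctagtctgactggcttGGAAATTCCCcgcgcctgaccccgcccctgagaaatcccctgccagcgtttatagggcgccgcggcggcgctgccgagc

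Further matches are shown as shorter stretches, 1 for each of the other genes with a match and a second for Nfkb2, again with the match in capitals and each read on the strand of its gene. They lie at chr10:19015393-19015442 (minus strand) for Tnfaip3, chr19:46304678-46304727 (plus strand) for Nfkb2, chr19:46305685-46305734 (plus strand) for a strict match at another start of Nfkb2, chr11:23771032-23771081 (minus strand) for Rel, chr17:45555574-45555623 (plus strand) for Nfkbie and chr7:19822724-19822773 (minus strand) for Bcl3.

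Tnfaip3 site: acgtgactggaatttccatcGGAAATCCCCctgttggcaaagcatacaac
Nfkb2 site: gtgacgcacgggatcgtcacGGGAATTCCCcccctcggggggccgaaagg
Nfkb2 strict site: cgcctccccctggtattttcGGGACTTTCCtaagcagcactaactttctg
Rel site: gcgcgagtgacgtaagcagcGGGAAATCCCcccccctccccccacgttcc
Nfkbie site: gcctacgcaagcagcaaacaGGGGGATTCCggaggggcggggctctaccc
Bcl3 site: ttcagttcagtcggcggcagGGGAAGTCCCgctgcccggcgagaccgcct

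Both strands were searched for a strict motif, GGGA followed by any 2 bases and TTCC, and for the wider kappaB consensus, which was added after these promoters had been seen and includes every strict match. The wide consensus was found in 6 of the 7 genes with a window, Rela being the exception, and in 9.55% of the 27025 genes with a window in the table. The strict motif was found in Nfkbia and Nfkb2 and in 1.63% of all genes. In Nfkbia it is the match shown, and in Nfkb2 its matches lie in the windows of other starts and not in the first Nfkb2 stretch. Of the 7, Nfkb2 has 3 windows, Tnfaip3 has 2 and the others have 1 each. A match describes letters only and says nothing about binding in these cells.

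No member passed the test in the comparison of all arrays. All 9 measured members had a higher mean in the Lxn-/- arrays than in the WT arrays, by 0.011 to 0.31 with a median of 0.10, while the median over all 23410 features was -0.038. After quantile normalization 6 of the 9 had a higher mean, and Rel, Nfkbie and Nfkbiz had a lower one. With limma, 0 of the 9 passed a Benjamini-Hochberg adjusted p of 0.05, as did 0% of all features, and 0 of the 9 had an unadjusted p under 0.05, against 14.3% of all features. In none of the 9 did the 3 Lxn-/- values all lie on 1 side of the 3 WT values, which was the case for 21.6% of all features.

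The members spread widely among the 3 Lxn-/- arrays. Lxn-/- array 3 was the highest of the 6 arrays in 8 of the 9 members, against 15.5% of all genes, and Lxn-/- array 2 was the lowest of the 6 in 6 of them, against 19.3% of all genes. A share above 15.5% for array 3 also held in the kinase, adaptor, further inhibitor, target and immediate early lists below. It did not hold in the receptor and ligand lists. The members lie at level percentiles 57 to 96, so all genes are not matched to them in level. Lxn-/- arrays 1 and 3 both read above Lxn-/- array 2 in 8 of the 9, against 31.7% of all genes. Such counts are not 9 separate observations. Over the 6 arrays the 36 pairs of members had a median Pearson r of 0.81, from 0.15 to 0.98. The SD among the Lxn-/- arrays exceeded that among the WT arrays in all 9, against 59.5% of all genes. After quantile normalization, and likewise after centring each array on its median, Lxn-/- arrays 1 and 3 still both read above array 2 in 8 of the 9 and the SD was wider in all 9. Lxn-/- array 3 was then the highest of the 6 in 6 members after quantile normalization and in 8 after centring.

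**Figure D1:**
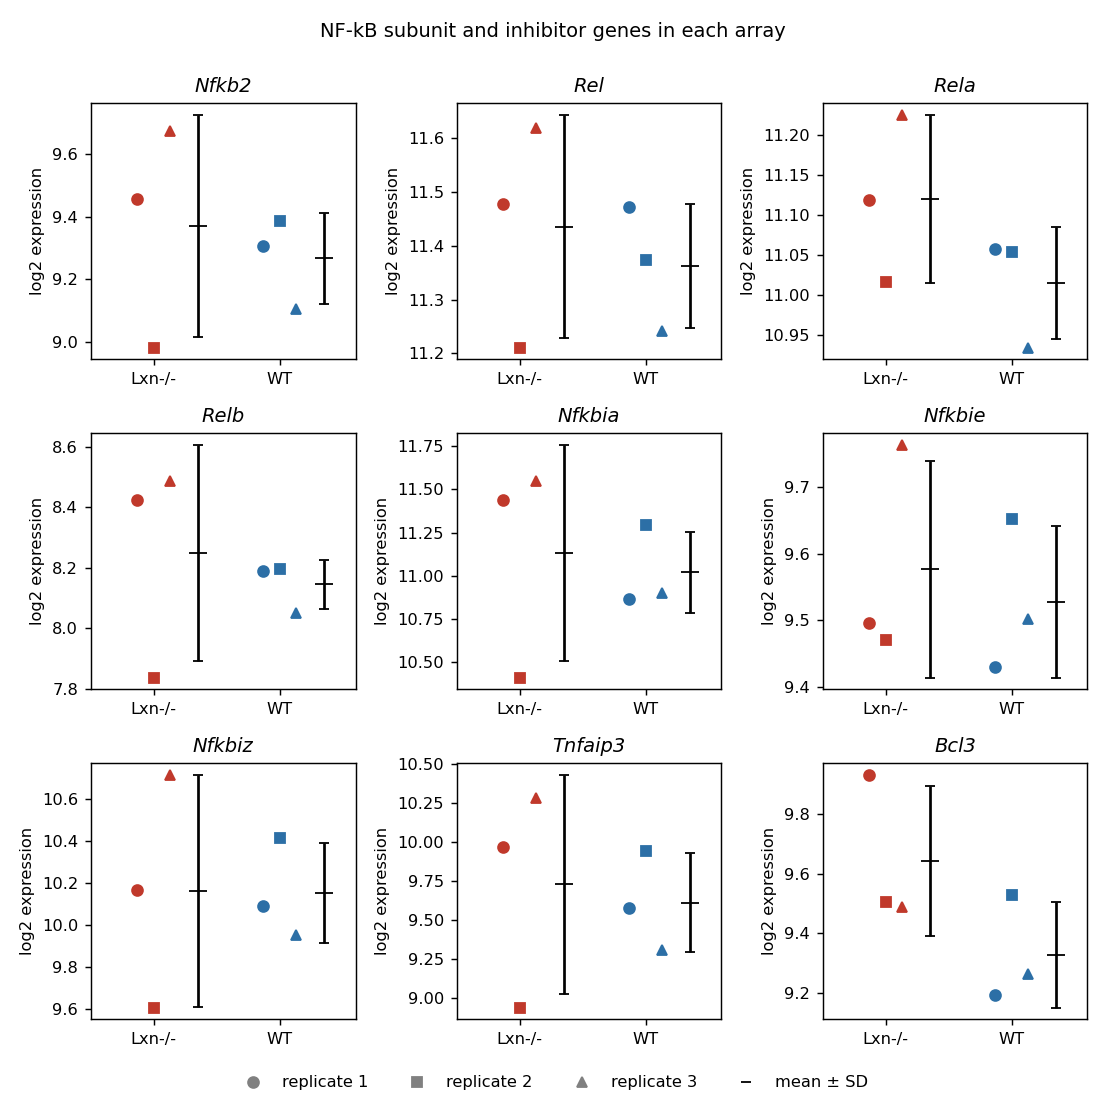
Log2 expression (vertical axis, own scale in each panel) of the 9 measured members in the 3 Lxn-/- arrays (red) and the 3 WT arrays (blue), with a symbol for each replicate and black bars for the group mean ± SD (n = 3 each). Lxn-/- array 2 (square) lies below Lxn-/- arrays 1 and 3 in every panel but that of Bcl3.

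Among the subunits Rela was the steadiest. It encodes p65, the main activating subunit of the canonical pathway, and read 11.12, 11.02 and 11.23 in Lxn-/- arrays 1, 2 and 3, against 11.06, 11.05 and 10.93 in WT arrays 1, 2 and 3. Lxn-/- arrays 1 and 3 lay above all WT arrays and array 2 lay inside the WT range. The difference was 0.11 (SE 0.093, 95% confidence interval -0.11 to 0.32, adjusted p 0.559 in limma), and its SD was the smallest of the 9 members in both groups, at 0.11 in the Lxn-/- arrays and 0.071 in the WT arrays.

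Rel encodes c-Rel, the subunit best known from lymphocytes. It read 11.48, 11.21 and 11.62 in the Lxn-/- arrays, against 11.47, 11.37 and 11.24 in the WT arrays. Lxn-/- array 2 was the lowest of the 6, and Lxn-/- array 1 was level with WT array 1. The difference was 0.074 (SE 0.12, interval -0.20 to 0.35, adjusted p 0.759 in limma).

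Relb and Nfkb2 encode the partners of the non-canonical pathway, in which the p100 precursor made from Nfkb2 is cut to p52 and pairs with RelB. Relb read 8.42, 7.84 and 8.49 in the Lxn-/- arrays, against 8.19, 8.20 and 8.05 in the WT arrays. Nfkb2 read 9.46, 8.98 and 9.67 in the Lxn-/- arrays, against 9.31, 9.39 and 9.11 in the WT arrays. In both genes the WT values lay between Lxn-/- array 2 below and Lxn-/- arrays 1 and 3 above. The differences of the group means were 0.10 for Relb (SE 0.16, interval -0.26 to 0.47, adjusted p 0.749 in limma) and 0.10 for Nfkb2 (SE 0.17, interval -0.28 to 0.48, adjusted p 0.754).

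The widest spread was that of Tnfaip3, Nfkbia and Nfkbiz, in which the Lxn-/- arrays spanned 1.34, 1.14 and 1.11. Nfkbia encodes IkB-alpha, the fast inhibitor that is resynthesised soon after NF-kB enters the nucleus. It read 11.44, 10.41 and 11.55 in the Lxn-/- arrays, against 10.86, 11.29 and 10.90 in the WT arrays. The mean of Lxn-/- arrays 1 and 3 was 1.08 above Lxn-/- array 2, while the WT arrays spanned 0.43. The group means differed by 0.11 (SE 0.27, interval -0.50 to 0.73, adjusted p 0.839 in limma).

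Tnfaip3 encodes A20, a ubiquitin-editing enzyme that shuts off signalling upstream of IKK. It read 9.97, 8.94 and 10.28 in the Lxn-/- arrays, against 9.58, 9.94 and 9.31 in the WT arrays. The mean of Lxn-/- arrays 1 and 3 was 1.19 above Lxn-/- array 2, the widest such gap of the members, and the WT arrays spanned 0.63. The group means differed by 0.12 (SE 0.31, interval -0.58 to 0.82, adjusted p 0.850 in limma).

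Nfkbiz encodes IkB-zeta, a nuclear IkB protein that acts as a cofactor at a subset of NF-kB target genes. It read 10.17, 9.61 and 10.71 in the Lxn-/- arrays, against 10.09, 10.41 and 9.95 in the WT arrays. Lxn-/- array 1 lay inside the WT range, array 3 above it and array 2 below it. The difference of means was 0.011 (SE 0.25, interval -0.55 to 0.57, adjusted p 0.987 in limma), and it changed sign after quantile normalization.

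Nfkbie, which encodes the inhibitor IkB-epsilon, varied least among the inhibitors. It read 9.50, 9.47 and 9.76 in the Lxn-/- arrays, against 9.43, 9.65 and 9.50 in the WT arrays. Only Lxn-/- array 3 lay outside the WT range. The difference was 0.049 (SE 0.11, interval -0.20 to 0.30, adjusted p 0.828 in limma), again with a change of sign after quantile normalization.

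Bcl3 departed from the order of the others. It encodes a nuclear IkB protein that binds p50 and p52 homodimers and works as a coactivator or corepressor. It read 9.93, 9.50 and 9.49 in the Lxn-/- arrays, against 9.19, 9.53 and 9.27 in the WT arrays. Lxn-/- arrays 2 and 3 were level, array 1 was the highest of the 6, and the groups overlapped through WT array 2. Bcl3 had the largest difference of the members, 0.31 (SE 0.14, interval -0.010 to 0.64), with an unadjusted p of 0.0562 and an adjusted p of 0.353 in limma.

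With the Lxn-/- arrays taken apart, most members lay on opposite sides of the WT mean. Without Lxn-/- array 2, all 9 had a higher mean in the Lxn-/- arrays, at a median of 0.30. In 6 of them (Nfkb2, Rel, Rela, Relb, Nfkbia and Tnfaip3) both remaining Lxn-/- values lay above all WT values, against 13.4% of all features. That count was 3 of 9 after quantile normalization and 7 of 9 after centring. In Rel that margin was 11.48 against 11.47. Of the 9, 5 were higher at an unadjusted p under 0.05, against 5.48% of all features, and 0 passed the adjusted threshold in limma, which 0.619% of all features did. Those 5 were Tnfaip3 (0.52, SE 0.18, adjusted p 0.339), Nfkbia (0.47, SE 0.14, adjusted p 0.300), Bcl3 (0.38, SE 0.16, adjusted p 0.400), Relb (0.31, SE 0.11, adjusted p 0.358) and Nfkb2 (0.30, SE 0.13, adjusted p 0.422).

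For Lxn-/- array 2 alone the median was -0.29, and 7 of the 9 members were below the WT mean, the exceptions being Rela (0.00069) and Bcl3 (0.18). In 6 members its value lay below all WT values, against 37.2% of all features. The differences were -0.67 for Tnfaip3 (SE 0.21, adjusted p 0.327 in limma), -0.61 for Nfkbia (SE 0.18, adjusted p 0.324), -0.55 for Nfkbiz (SE 0.18, adjusted p 0.331) and -0.31 for Relb (SE 0.13, adjusted p 0.376). These 4 had an unadjusted p under 0.05, against 9.7% of all features in that direction, and 0 passed the adjusted threshold, which 0.0128% of all features did. A lone array is assumed here to vary as the WT arrays do.

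**Figure D2:**
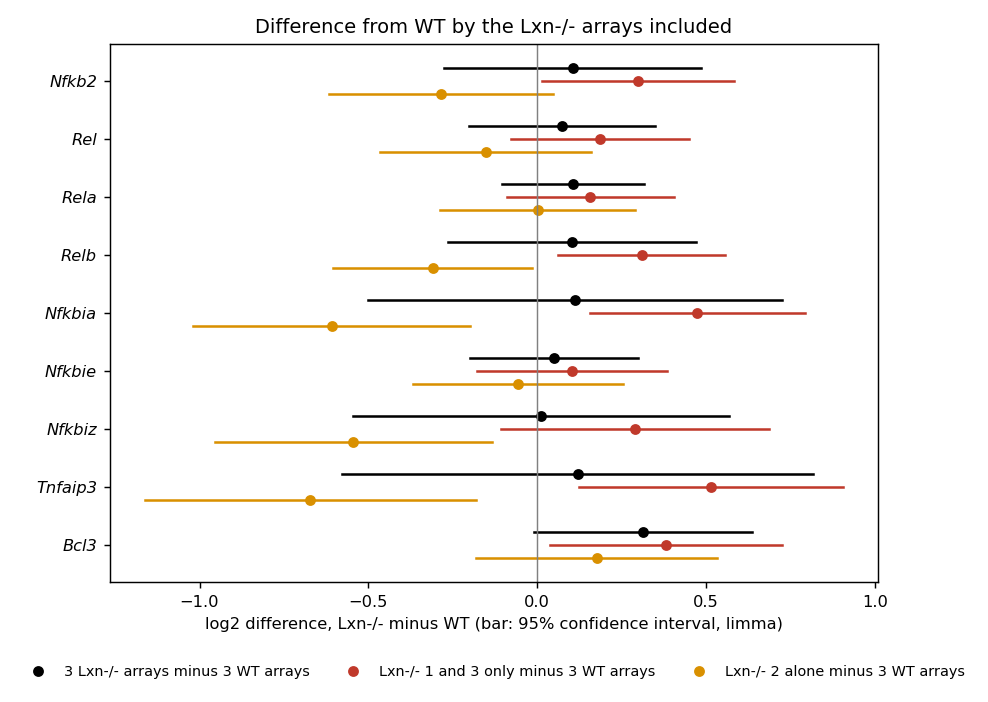
Log2 difference from the 3 WT arrays (horizontal axis, with 95% confidence intervals from limma) of each member for all 3 Lxn-/- arrays (black), Lxn-/- arrays 1 and 3 (red) and Lxn-/- array 2 alone (orange). For Tnfaip3 the red point lies at 0.52 and the orange point at -0.67, while the black point lies at 0.12.

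Kinase and adaptor genes upstream of the subunits had the order of Lxn-/- arrays 1 and 3 above array 2 no more often than all genes did. Of 8 measured IKK and upstream kinase genes of 11 listed, 6 had a higher and 2 a lower mean in the Lxn-/- arrays (median 0.057, and -0.018 after quantile normalization), and 0 had an unadjusted p under 0.05 in limma. The smallest p-values belonged to Map3k8 (0.15, SE 0.11), Map3k14, which encodes the NIK kinase of the non-canonical pathway (0.095, SE 0.097), and Map3k7, which encodes TAK1 (-0.094, SE 0.098), with adjusted p-values of 0.477 to 0.615. Lxn-/- arrays 1 and 3 both exceeded array 2 in 2 of these 8 genes, against 31.7% of all genes. As in the members, array 3 was often the highest of the 6, in 5 of the 8, against 15.5% of all genes.

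Of 13 measured adaptor and ubiquitin ligase genes of 15 listed, 9 had a higher and 4 a lower mean (median 0.039, and -0.045 after quantile normalization), and 0 had an unadjusted p under 0.05. The leading ones were Malt1, a paracaspase of antigen receptor signalling (0.21, SE 0.097, adjusted p 0.358 in limma), Tradd, an adaptor of the TNF receptor (0.12, SE 0.090, adjusted p 0.507), and Traf6, a ubiquitin ligase of the interleukin-1 and Toll-like receptor pathways (0.097, SE 0.083, adjusted p 0.546). Lxn-/- arrays 1 and 3 both exceeded array 2 in 3 of the 13, against 31.7% of all genes. Array 3 was the highest of the 6 in 5, against 15.5% of all genes.

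Further inhibitors outside the 10 genes numbered 11, all measured, with 8 higher and 3 lower means (median 0.077, and -0.0036 after quantile normalization) and 0 with an unadjusted p under 0.05. Nfkbib, which encodes IkB-beta, differed by 0.21 (SE 0.11, adjusted p 0.380 in limma) and Otulin, a deubiquitinase of linear chains, by 0.15 (SE 0.11, adjusted p 0.487). Tnip3, which encodes an A20-binding protein, read 8.44, 10.08 and 9.52 in the Lxn-/- arrays, against 9.81, 9.96 and 10.02 in the WT arrays (-0.58, SE 0.33, adjusted p 0.405). It was low in Lxn-/- arrays 1 and 3, where the A20 gene Tnfaip3 was high. Nfkbid, a further nuclear IkB gene, had the order of the members and was named after its values were seen. It read 10.79, 9.97 and 10.74 in the Lxn-/- arrays, against 10.15, 10.55 and 10.01 in the WT arrays (0.27, SE 0.22, adjusted p 0.539), and differed by 0.53 without Lxn-/- array 2 (SE 0.15, adjusted p 0.271). Lxn-/- arrays 1 and 3 both exceeded array 2 in 4 of the 11, against 31.7% of all genes. Array 3 was the highest of the 6 in 4, against 15.5% of all genes.

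Receptor genes upstream of the pathway had 3 higher and 5 lower means among 8 measured of 9 listed. Their median was -0.028, which was -0.070 after quantile normalization and 0.029 after each array was centred on its median. The lymphotoxin receptor gene Ltbr read 8.98, 8.73 and 8.79 in the Lxn-/- arrays, against 8.64, 8.59 and 8.62 in the WT arrays, with no overlap, as in 8.54% of all features in that direction (0.22, SE 0.095, adjusted p 0.349 in limma). It was the only receptor gene of the 8 with an unadjusted p under 0.05 and did not pass. Cd40 differed by -0.17 (SE 0.10, adjusted p 0.422) and Tnfrsf13c, the BAFF receptor gene, by -0.13 (SE 0.11, adjusted p 0.538). In 1 of the 8 both Lxn-/- arrays 1 and 3 exceeded array 2, against 31.7% of all genes. Array 3 was the highest of the 6 arrays in 0, against 15.5% of all genes.

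Ligand genes had 2 higher and 7 lower means, all 9 being measured (median -0.061, and 0.011 after quantile normalization), and 0 had an unadjusted p under 0.05. Ltb, which encodes the lymphotoxin subunit that signals through the Ltbr receptor, read 8.46, 9.22 and 9.11 in the Lxn-/- arrays, against 8.92, 9.85 and 9.59 in the WT arrays (-0.52, SE 0.26, adjusted p 0.367 in limma). Cd40lg differed by -0.14 (SE 0.11, adjusted p 0.541) and Tnfsf14 by 0.10 (SE 0.088, adjusted p 0.542). The values of Cd40lg were low, at level percentile 5.6 of all genes. In 4 of the 9 both Lxn-/- arrays 1 and 3 exceeded array 2, against 31.7% of all genes, and array 3 was the highest of the 6 in 1. Tnf, named after its values were seen, had the order of the members. It read 10.02, 9.29 and 10.02 in the Lxn-/- arrays, against 9.86, 10.01 and 9.45 in the WT arrays (0.0074, SE 0.21, adjusted p 0.989 in limma). Without Lxn-/- array 2 it differed by 0.25 (SE 0.16, adjusted p 0.531), and array 2 alone differed by -0.48.

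The 23 listed target genes were all measured and split evenly, with 11 higher and 12 lower means and a median of -0.017, which was 0.010 after quantile normalization and 0.039 after centring. Of them 1 was higher and 2 were lower at an unadjusted p under 0.05, against 5.06% and 9.23% of all features, and 0 passed after adjustment. These were Sod2, the mitochondrial superoxide dismutase gene (0.24, SE 0.097, adjusted p 0.340 in limma), Csf2, the GM-CSF gene (-0.40, SE 0.10, adjusted p 0.340), and the adhesion molecule gene Vcam1 (-0.52, SE 0.18, adjusted p 0.340). Csf2 read 5.10, 5.18 and 5.21 in the Lxn-/- arrays, against 5.43, 5.75 and 5.52 in the WT arrays. It lay at level percentile 6.9 of all genes, so its difference is one of low values. Of the 23, 10 read higher in both Lxn-/- arrays 1 and 3 than in array 2, against 31.7% of all genes and 8 of the 9 members. Array 3 was the highest of the 6 arrays in 9 of the 23, against 15.5% of all genes. Without Lxn-/- array 2 the median of the targets was 0.031. At an unadjusted p under 0.05, 2 were then lower, as were 1141 of 19938 genes, and 6 were higher, against 5.48% of all features. Of these 6, named after their values were seen, Cxcl2, a neutrophil chemokine gene, passed the adjusted threshold (0.77, SE 0.14, adjusted p 0.041 in limma). The others were Ptgs2 (0.96), Gadd45b (0.78), Ier3 (0.40), Zc3h12a (0.31) and Sod2 (0.30).

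Immediate early genes, which are switched on quickly by many stimuli and encode transcription factors among other proteins, had the order of the members. In all 17 listed genes Lxn-/- arrays 1 and 3 both read above array 2, against 31.7% of all genes. Array 2 was the lowest of the 6 arrays in 13, against 19.3% of all genes, and array 3 the highest in 9. The list was drawn up with earlier results of these data known, so the shared order may not be independent of that choice. Relative to the WT mean, their median was 0.35, -0.28 and 0.44 in Lxn-/- arrays 1, 2 and 3, against -0.028, 0.16 and -0.15 in WT arrays 1, 2 and 3. The same median for the 9 members was 0.19, -0.29 and 0.34 in the Lxn-/- arrays, against -0.030, 0.12 and -0.12 in the WT arrays. In both lists WT array 2 was the highest and WT array 3 the lowest of the WT arrays. That WT order is not particular to them. It also held in each of the other pathway lists and over all genes (-0.016, 0.034 and -0.019 in WT arrays 1, 2 and 3). Over all Lxn-/- arrays the immediate early median was 0.15, with 0 of 17 at an unadjusted p under 0.05 in limma and with the smallest p-values for Fos (0.44, SE 0.22, adjusted p 0.375), Socs3 (0.28, SE 0.15, adjusted p 0.380) and Zfp36 (0.31, SE 0.19, adjusted p 0.420). Without Lxn-/- array 2 the median was 0.38 and 12 of the 17 were higher at an unadjusted p under 0.05, against 5.48% of all features. Atf3 alone of the 17 then passed the adjusted threshold (1.18, SE 0.18, adjusted p 0.0131 in limma). The Y-linked signal ran in the same order over the Lxn-/- arrays, and its part in the values of the members was not tested, nor was that of the immediate early response.

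**Figure D3:**
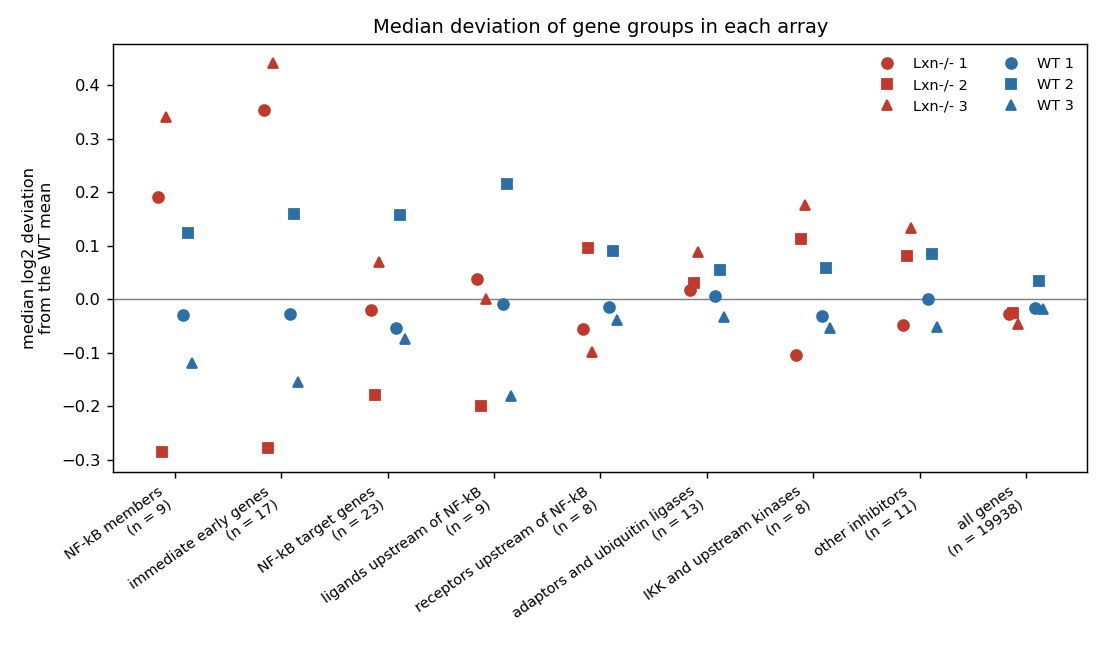
Median log2 deviation from the WT mean (vertical axis) of the members, of the other pathway lists, of the immediate early genes and of all genes in each Lxn-/- array (red) and WT array (blue), with a symbol for each replicate. The members and the immediate early genes both have Lxn-/- arrays 1 and 3 above and Lxn-/- array 2 below all WT arrays, and the medians of all genes lie between -0.047 and 0.034.

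Monocyte, neutrophil and erythroid markers ran in other orders than the members, while the orders of the B cell and of the T and NK cell markers matched in part. In bulk arrays fewer cells of a type and less RNA per cell cannot be told apart. For 7 measured monocyte and macrophage markers of 8 listed, the mean level was 9.05, 9.27 and 9.27 in Lxn-/- arrays 1, 2 and 3, against 9.13, 9.03 and 8.95 in the WT arrays, with 4 higher and 3 lower group means. Mpeg1, Csf1r and Cd68 were higher at an unadjusted p under 0.05 with no overlap (against 5.06% and 8.54% of all features), while Adgre1 (-0.23), Cd14 (-0.13) and Lyz2 (-0.045) had lower means, and none of the 7 passed after adjustment in limma. For the 8 neutrophil markers the mean level was 9.76, 10.15 and 10.09 in the Lxn-/- arrays, against 9.53, 10.05 and 9.81 in the WT arrays. Lxn-/- arrays 1 and 3 both exceeded array 2 in 1 of the 7 monocyte markers, 0 of the 8 neutrophil markers, 2 of 6 B cell markers, 2 of 5 T and NK cell markers and 1 of 5 erythroid markers, against 31.7% of all genes. Relative to the WT mean, the B cell median was -0.069, -0.18 and -0.12 in Lxn-/- arrays 1, 2 and 3. For T and NK cell markers it was -0.080, -0.13 and -0.097. Array 2 thus had the lowest of these medians in both lists, as in the members. By mean level, T and NK cell markers were lowest in array 3 (6.23, against 6.30 in array 2).

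Genes outside the family with the most similar profile were sought over the 6 arrays among 9345 genes above the median level. For Nfkbia they were Rabgef1 (Pearson r 0.988), Fbxo33 (0.987) and Zc3h12a (0.986). Zc3h12a, which encodes the RNase regnase-1, is also on the target list, and it read 9.36, 8.78 and 9.47 in the Lxn-/- arrays, against 9.05, 9.20 and 9.06 in the WT arrays. For Bcl3, the member with the smallest unadjusted p, they were Sart3 (0.991), Dnaja3 (0.986) and Asf1b (0.985). These are the highest of 9345 correlations over 6 arrays that include the label mismatch, and they describe these arrays only.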

How the data were processed

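Per the labels' protocols, RNA of 3 Lxn-/- and 3 WT pools was labelled from 100 ng for Affymetrix MoGene 1.0 ST arrays. The deposited table holds log2 expression values of 35557 features that the authors normalized by RMA, per the series text, and the submitters' processing notes add Partek 6.0. The log2 scale was inferred from the values, and no source used here gives a genome build. RMA equalises arrays, so total RNA per cell is not measurable.

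Names came from the platform's table of probes and genes, and Entrez identifiers brought symbols up to date with GRCm38.p6: 21789 features carry 1 symbol (21698 matched), 1621 several and 12147 none. The feature with the highest mean stands for a gene. Groups follow the sample titles. The test was limma 3.58.1 under R 4.3.3 (lmFit, eBayes, two-sided), Benjamini-Hochberg adjusted over 23410 features at 0.05, and it was tested on simulated data. Lists are described by counts and medians.

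The members, lists and tests were chosen with earlier results of these data known. Named are all measured members, the 3 genes of smallest p in each pathway list, and the 3 genes most similar to Nfkbia and to the member of smallest p. The mature-cell markers, Tnf, and the genes named for their values without Lxn-/- array 2, were chosen after their values were seen. Alternatives were arrays left out, a replicate block, 2 rescalings, a level filter, other eBayes settings and averaged features. Deviations from the group means of same-numbered arrays correlated at 0.076, -0.0076 and -0.0057. No pairing by replicate number was seen in them, but with 3 arrays per group this check cannot exclude one. Figures were drawn with matplotlib 3.10.9.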

Additional observations from a re-analysis of the deposited data

How the results depend on the processing

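No member passed the adjusted threshold under any of 13 alternatives, and Bcl3 (0.17 to 0.41) and Rela (0.00069 to 0.16) kept their sign in all of them. Without Lxn-/- arrays 1 and 3 the differences were negative for Nfkb2 (-0.29), Rel (-0.15), Relb (-0.31), Nfkbia (-0.61), Nfkbie (-0.057), Nfkbiz (-0.55) and Tnfaip3 (-0.67), the median of the members was -0.29, 4 members had an unadjusted p under 0.05, 6 did not overlap with WT and 3 features passed the adjusted threshold. With Lxn-/- array 2 alone, no overlap means only that its value lay outside the 3 WT values. In those 6 members it lay below all WT values, as it did in 37.2% of all features. After quantile normalization Rel was -0.019, Nfkbie -0.042 and Nfkbiz -0.072. The cause of these changes of sign was not tested.

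Leaving out 1 array at a time, differences ranged from -0.048 to 0.30 for Nfkb2, -0.018 to 0.19 for Rel, -0.016 to 0.31 for Relb, -0.095 to 0.47 for Nfkbia, -0.045 to 0.11 for Nfkbie, -0.26 to 0.29 for Nfkbiz and -0.16 to 0.52 for Tnfaip3. The members' median ranged from -0.045 without Lxn-/- array 3 to 0.30 without Lxn-/- array 2. Members with an unadjusted p under 0.05 ranged from 0 to 5 and non-overlapping members from 0 to 6, both highest without Lxn-/- array 2. Features passing the adjusted threshold ranged from 0 to 145 (without Lxn-/- array 2), and those with an unadjusted p under 0.05 from 1628 (without Lxn-/- array 3) to 5541 (without Lxn-/- array 1), against 3346 with all arrays and 1904 without WT array 2.

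With the replicate block 1 feature passed the adjusted threshold and 0 members had an unadjusted p under 0.05. There were 1812 features with an unadjusted p under 0.05 after quantile normalization and 1356 among features above the median level, where fewer were tested. Bcl3 crossed that p when arrays were centred on their medians (with 1 member then not overlapping), with trend and robust eBayes and with averaged features, giving 1 member in each. Leaving out Lxn-/- array 2, Lxn-/- array 3 or WT array 2 also took Bcl3 past it (unadjusted p 0.0326, 0.0397 and 0.0266 in limma). Of 181 medians of the other lists under these alternatives, 11 moved by more than the spread between arrays. The T and NK cell markers had no gene above the median level and so no value there.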
